A study of Homo sapiens with 3 samples.

Results

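The nuclear receptor superfamily was examined in CAMA1 cells through a list of 41 genes, taken from the table by symbol, which leaves out ESR1, PGR and the NR4A group and is not the whole superfamily. They are 41 of the 26485 entries of the deposited table, and each was found once. CAMA1 is an established human breast cancer cell line, described as ER+ and FGFR1-amplified, at a passage below 10. A single group was sequenced, 3 libraries called biological replicates, from untreated cells kept for 48 h without estradiol before RNA was taken, with no treated group beside it. All values therefore come from cells of 1 line that share the estradiol-free medium. The deposited counts, estimates that need not be whole, summed to 26473939, 26592335 and 30745412 in replicates 1, 2 and 3. Since no label ties the replicates to separate cultures or runs, p-values measure the spread of these libraries alone, which may be technical.

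The cells carried the transcripts of luminal breast epithelium. All 8 luminal markers, among them keratin genes, GATA3, FOXA1 and ESR1, were detected, at 30.1 to 3256 TPM (counts divided by gene length and scaled to a sum of 1000000 per library). The summed level of the list was 7703 to 9466 TPM over libraries. The 3 markers each of fibroblasts, endothelium and immune cells were all below 10 counts in some library, with summed levels of at most 0.105 TPM for fibroblasts, 0.253 TPM for endothelium and 0.0934 TPM for immune cells. Of 3 basal epithelial markers 2 were detected, the list summing to 2.04 to 2.81 TPM, and of 3 hepatocyte markers 1 was, the list summing to 0.758 to 1.52 TPM.

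Nuclear receptors are transcription factors that bind DNA through zinc fingers and, in most members, are switched by a small lipophilic ligand held in a pocket of the same protein. Steroid receptors act mainly as homodimers. The receptors for retinoic acid, thyroid hormone, vitamin D, fatty acids and oxysterols pair with a retinoid X receptor (RXR), and orphan members have no established hormone. Many non-steroid members read variants of the hexamer AGGTCA. In luminal breast cells the family is best known through the estrogen receptor, and retinoic acid and vitamin D receptors are known to restrain growth of such cells in culture.

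Start regions of 5 windows are shown for the members on which the account of levels turns. The windows reach from 250 bases before to 50 bases after a gene start in RefSeq (GRCh38.p14), written 5′ to 3′ on the strand of the gene. The RXR genes come first, since they include the most abundant member and 1 that was not detected, and capitals mark the CG pairs: RXRA (chr9:134326205-134326504, plus strand), RXRB (chr6:33200804-33201103, minus strand) and RXRG (chr1:165445077-165445376, minus strand).
RXRA: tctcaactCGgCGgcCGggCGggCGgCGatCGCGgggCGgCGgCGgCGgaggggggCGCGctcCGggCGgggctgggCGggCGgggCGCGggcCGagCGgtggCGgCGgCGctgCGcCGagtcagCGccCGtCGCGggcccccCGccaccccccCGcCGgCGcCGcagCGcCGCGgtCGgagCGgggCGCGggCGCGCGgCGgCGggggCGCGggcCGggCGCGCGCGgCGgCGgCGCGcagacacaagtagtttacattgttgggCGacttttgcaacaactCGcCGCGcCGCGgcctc
RXRB: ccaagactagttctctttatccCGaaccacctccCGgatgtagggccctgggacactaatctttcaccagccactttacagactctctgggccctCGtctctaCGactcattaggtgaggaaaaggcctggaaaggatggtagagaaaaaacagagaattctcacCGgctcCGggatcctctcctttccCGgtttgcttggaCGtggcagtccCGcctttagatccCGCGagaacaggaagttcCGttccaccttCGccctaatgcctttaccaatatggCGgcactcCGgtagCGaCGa
RXRG: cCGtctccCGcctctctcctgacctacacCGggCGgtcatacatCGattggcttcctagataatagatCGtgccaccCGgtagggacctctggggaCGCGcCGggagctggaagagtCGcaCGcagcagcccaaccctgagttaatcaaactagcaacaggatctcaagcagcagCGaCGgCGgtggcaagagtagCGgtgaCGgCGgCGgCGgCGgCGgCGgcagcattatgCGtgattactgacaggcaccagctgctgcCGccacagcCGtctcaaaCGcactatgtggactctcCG
The RXRA window held 65 CG pairs, the RXRB window 17 and the RXRG window 28. The ratio of observed to expected CG pairs was 1.251 for RXRA, 0.792 for RXRB and 0.972 for RXRG, which had at most 1 count in any library.

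Motifs were sought next in the start windows of RARA (chr17:40308930-40309229, plus strand) and NR1D2 (chr3:23945871-23946170, plus strand). RARA is shown with the receptor hexamer AGGTCA in capitals, and NR1D2 with the E-box CACGTG, the element read by the clock factors CLOCK and BMAL, in capitals. The gene start of the NR1D2 window lies 861 bases from the deposited one, and this window was chosen because it holds the E-box, which the window nearest to the deposited start does not.
RARA: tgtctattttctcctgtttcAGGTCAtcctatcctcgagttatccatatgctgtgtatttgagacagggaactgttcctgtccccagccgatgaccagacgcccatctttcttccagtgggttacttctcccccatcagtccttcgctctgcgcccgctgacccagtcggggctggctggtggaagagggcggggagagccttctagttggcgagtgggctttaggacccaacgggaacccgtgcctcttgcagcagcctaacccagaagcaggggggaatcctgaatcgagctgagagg
NR1D2: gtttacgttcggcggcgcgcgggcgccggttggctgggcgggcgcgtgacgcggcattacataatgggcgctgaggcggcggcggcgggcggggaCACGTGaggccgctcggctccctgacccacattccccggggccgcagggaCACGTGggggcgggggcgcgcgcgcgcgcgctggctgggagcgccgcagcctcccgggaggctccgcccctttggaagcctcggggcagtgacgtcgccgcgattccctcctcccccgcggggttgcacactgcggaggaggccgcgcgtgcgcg
The RARA window held 1 hexamer, at position −230 from the start, and the NR1D2 window held 2 E-boxes. Searched on both strands, AGGTCA was in 16 of 84 windows of 37 members (19.1%), against 13.8% of all 35116 windows of the reference. A gene can have several windows, and the 16 came from 11 members. CACGTG was in 7.26% of all windows. Among windows nearest to the deposited start, 1 of 22 detected members held it, against 9.63% of detected protein-coding entries. Of the members not detected 1 of 8 held it, against 6.03% of protein-coding entries not detected. A match describes the letters of a window and not a site in use.

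Most of the 41 receptor genes were transcribed, but few at high levels. Of the 41, 27 were detected, meaning at least 10 counts in each library (65.9%), against 67.4% of 19021 protein-coding entries and 54.9% of all entries. A further 12 had at most 3 counts in each library and are called not detected, and 2 lay between. At 10 TPM or above stood 15 members (36.6%), against 47.9% of protein-coding entries. The median over the 41 genes was 1.29 ± 0.103 TPM (SD over libraries, n = 3), against 8.09 TPM over protein-coding entries. Together the 41 genes took 0.117 ± 0.00271% of all counts. RXRA, NR2F6 and NR1H2 made up 35.8% of their summed TPM with the deposited gene lengths. Count intervals and limits take in counting error alone, and in bulk RNA fewer cells expressing a gene cannot be told apart from less RNA per cell.

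**Figure D1:**
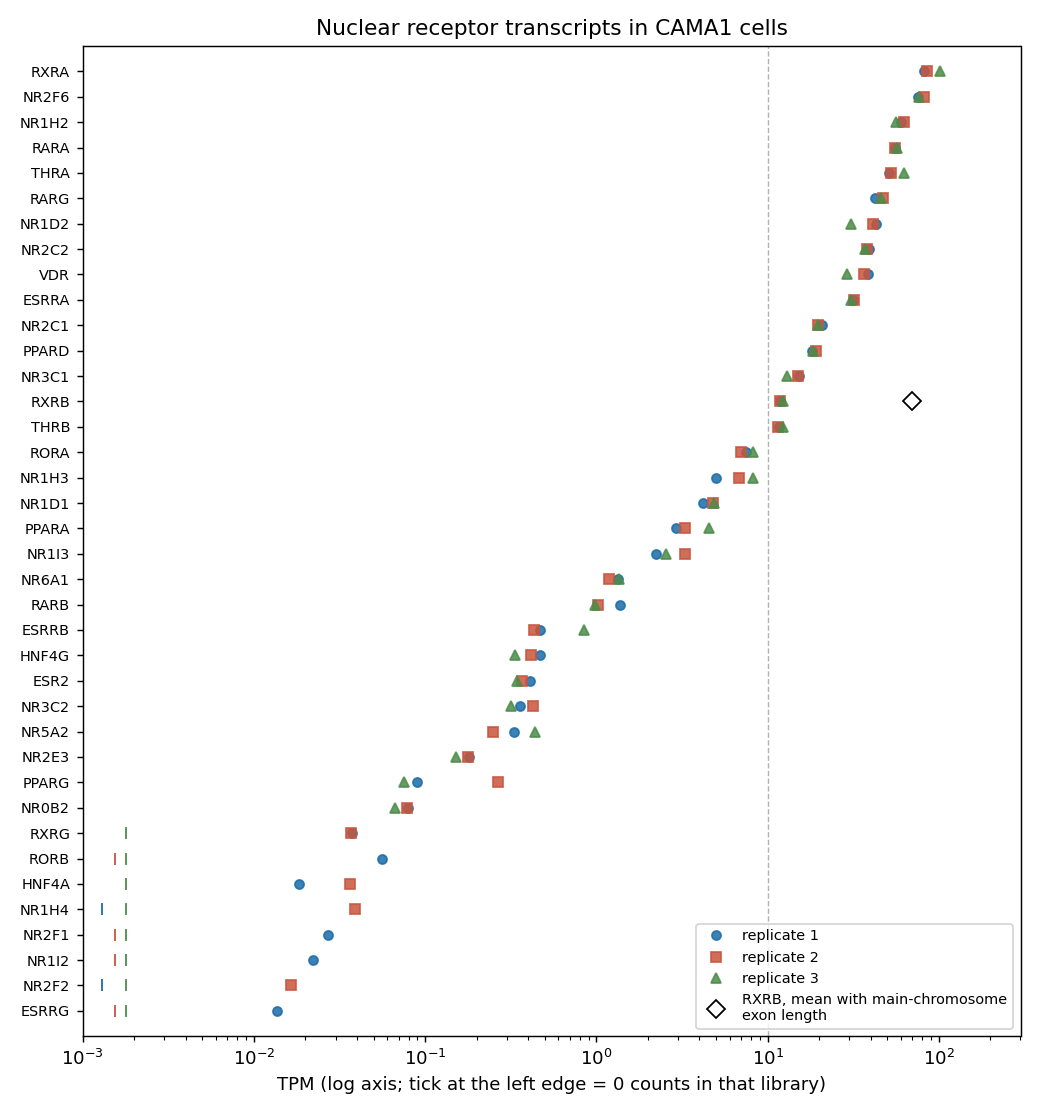
Level of each receptor gene in each library as TPM on a log axis, ordered by the mean, with a dashed line at 10 TPM. The 38 genes with any count are drawn, ticks at the left edge mark libraries with 0 counts, and the open diamond shows RXRB at 69.8 TPM when its exon length on the main chromosome is used in place of the deposited length.

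RXRA, the common heterodimer partner, was the most abundant member, and RXRB joined it once gene length was taken from the main chromosome. RXRA (chromosome 9, 134326463 to 134440586 on hg38) stood at 81.8, 84.8 and 101 TPM in replicates 1, 2 and 3 on 5920, 6184 and 8678 counts. RXRB (chromosome 6, 33193585 to 33200853) stood at 11.8, 11.8 and 12.3 TPM with the deposited length. That length, 18110 bases, sums the exons of 6 sequences, the main chromosome and alternate contigs of the same region, while the exons on chromosome 6 alone span 3018 bases. With main-chromosome exon lengths, a setting picked once the data had been seen, RXRB reached 68.9, 68.6 and 71.8 TPM and RXRA 79.3, 82.2 and 98.0 TPM. RXRA was the higher in each library with either length, but the gap shrank.

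The log2 ratio of RXRA over RXRB was 2.89 ± 0.13 with deposited lengths and 0.30 ± 0.13 with exon lengths (SD, n = 3), a fold of 7.41 against 1.24. RXRA made up 88.1 ± 0.942% of the RXR transcripts with the deposited lengths and 55.2 ± 2.21% with the exon lengths. RXRG (chromosome 1) had 1, 1 and 0 counts. From the summed counts per length, RXRA exceeded RXRG 3842-fold (95% exact Clopper-Pearson interval of the count share, 1064 to 31729). The sources used here do not state how reads matching several contigs were counted. The other 26 detected members had a deposited length equal to their exon length on the main chromosome.

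**Figure D2:**
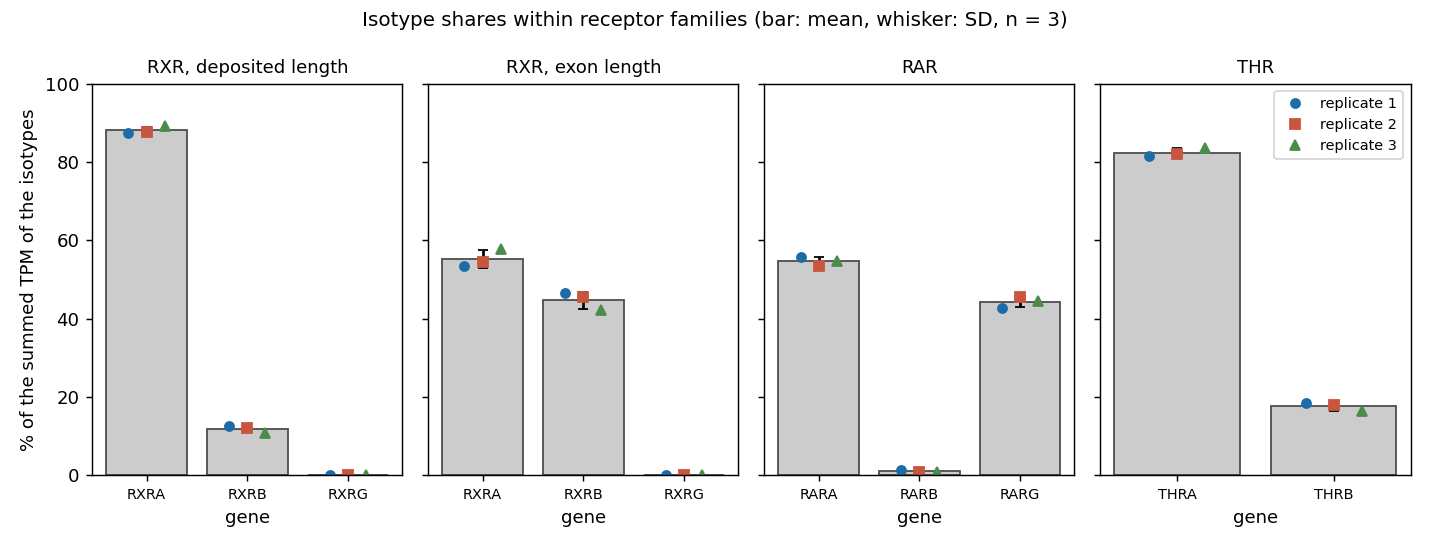
Share of each isotype in the summed TPM of its receptor family, in % on an axis from 0 to 100, with bars for the mean, whiskers for the SD and points for the 3 libraries. RXRA holds 88.1% of RXR transcripts with deposited lengths and 55.2% with exon lengths, RARA and RARG share the RAR transcripts, and THRA leads THRB.

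Receptors for hormones and vitamins were all present, but only in part at substantial levels. All 9 members of this class were detected, beside 67.4% of protein-coding entries, with a median of 14.4 TPM. RARA and RARG, receptors of retinoic acid, shared the retinoic acid receptor pool. RARA (chromosome 17, 40309171 to 40357643) stood at 55.5, 55.6 and 56.8 TPM, with a coefficient of variation of 1.31%. RARG stood at 42.6, 47.5 and 46.2 TPM, below RARA in each library without overlap. RARB, a gene known to be induced by retinoic acid, stood at 1.37, 1.02 and 0.984 TPM on 48, 36 and 41 counts. RARA made up 54.6 ± 1.19%, RARG 44.3 ± 1.39% and RARB 1.10 ± 0.238% of the 3 genes.

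THRA, a thyroid hormone receptor gene, stood at 51.2, 52.7 and 63.0 TPM and THRB, its paralog, at 11.7, 11.6 and 12.3 TPM. THRA thus held 82.4 ± 1.17% of their transcripts. VDR, the vitamin D receptor gene, stood at 38.8, 36.7 and 29.2 TPM, lowest in replicate 3. NR3C1, the glucocorticoid receptor gene, stood at 15.2, 15.0 and 12.9 TPM, also lowest in replicate 3. NR3C2, the mineralocorticoid receptor gene, had 21, 25 and 22 counts (0.367 ± 0.0539 TPM), and ESR2, the second estrogen receptor gene, 21, 19 and 21 counts (0.373 ± 0.0324 TPM). Both passed the detection limit in every library, at rank 12943 for ESR2 and 12958 for NR3C2 among the 19021 protein-coding entries.

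Among lipid and xenobiotic sensors, the ubiquitous isotypes led and the liver and fat isotypes were low or not detected. NR1H2, an oxysterol receptor gene, stood at 59.9, 63.0 and 56.5 TPM, and its paralog NR1H3 at 4.97, 6.84 and 8.20 TPM. PPARD, a fatty acid receptor gene, stood at 18.2, 19.2 and 18.4 TPM, against 2.92, 3.29 and 4.56 TPM for PPARA, which is known for fatty acid oxidation in liver. PPARG, the receptor gene of fat cell differentiation, had 2, 6 and 2 counts. From summed counts per length, PPARD exceeded PPARG 133-fold (95% exact interval 72.2 to 278). NR1I3, a xenobiotic receptor gene known from liver, stood at 2.22, 3.27 and 2.54 TPM on 31, 46 and 42 counts. Its exons share 261 bases, 18.5% of their length, with TOMM40L on the opposite strand, which had 1444 to 1798 counts. NR1I2, the other xenobiotic receptor gene, had 1, 0 and 0 counts, and the bile acid receptor gene NR1H4 had 0, 1 and 0.

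The circadian repressor NR1D2 exceeded its paralog NR1D1. NR1D2 (chromosome 3, 23945260 to 23980618) stood at 43.2, 41.3 and 30.7 TPM, lowest in replicate 3, and NR1D1 (chromosome 17, 40092784 to 40100725) at 4.22, 4.80 and 4.88 TPM. RORA, an activator that binds the same DNA elements, stood at 7.48, 7.0004 and 8.21 TPM. RORB, known from neurons and retina, had 2, 0 and 0 counts. From summed counts per length, RORA exceeded RORB 433-fold (95% exact interval 120 to 3579).

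Of 15 orphan receptors 8 were detected and 6 were not, beside 67.4% of protein-coding entries detected. NR2F6, a member of the COUP group, stood at 75.9, 82.3 and 76.7 TPM, next to RXRA in the order with deposited lengths. Its relatives NR2F1 and NR2F2, regulators of organ and vessel development, had 1 count each over the 3 libraries. NR2F6 exceeded NR2F2 15112-fold from summed counts per length, with a wide 95% exact interval of 2711 to 597041. NR2C2 and NR2C1, a pair of widely expressed orphan receptors, stood at 38.1 ± 1.18 TPM for NR2C2 and 20.02 ± 0.557 TPM for NR2C1. ESRRA, a constitutively active regulator of mitochondrial genes, stood at 31.7, 32.0 and 30.5 TPM. Its relatives were far lower, ESRRB at 0.469, 0.432 and 0.848 TPM and ESRRG at 1, 0 and 0 counts. ESRRA exceeded ESRRG 7310-fold (95% exact interval 1311 to 288838).

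The members named in this paragraph, most of them known from gonad, adrenal gland, liver, gut, brain or retina, stood at or below the median of the 41 genes (1.29 TPM). NR1I3 (2.68 TPM) and PPARA (3.59 TPM), described above through the liver, stood above it. NR6A1, known from germ cells, stood at 1.33, 1.18 and 1.35 TPM. NR5A2, a regulator of liver and pancreas genes, had 17, 13 and 27 counts, and HNF4G, known from gut and kidney, 19, 17 and 16. NR2E3, a photoreceptor gene, had 5 counts in each library. HNF4A, the liver and gut factor, had 1, 2 and 0 counts. NR0B2, which lacks the usual DNA-binding domain, had 1 count in each library. NR5A1 (steroid-producing glands), NR0B1 (which also lacks that domain) and NR2E1 (neural stem cells) had 0 counts in every library. Up to 3 counts are compatible with a count of 0, an upper limit of 0.0979 TPM for NR5A1, 0.191 TPM for NR0B1 and 0.0904 TPM for NR2E1.

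In 9 pairs of paralogs with both genes detected, the same gene led in 3 of 3 libraries. The log2 ratio of TPM, with 0.01 TPM added, was 5.64 ± 0.27 for RARA over RARB and 5.26 ± 0.13 for NR3C1 over NR3C2 (SD, n = 3). It was 3.19 ± 0.40 for NR1H2 over NR1H3, 2.40 ± 0.34 for PPARD over PPARA and 2.22 ± 0.12 for THRA over THRB. RARA over RARG stood at 0.30 ± 0.08, as close as RXRA over RXRB with exon lengths, and NR2C1 over NR2C2 at −0.93 ± 0.02. NR1D1 over NR1D2 stood at −3.04 ± 0.36. Flipping signs over the libraries, an exact permutation test taken as two-sided, gave p = 0.25 for each of the 9 pairs, the smallest p that 3 libraries allow, so no ratio could pass 0.05. Of the 15 pairs compared, 5 had 1 partner below the detection limit and are given above as count ratios, and for NR2F2 over NR2F1, with 1 count each, no fold was formed.

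**Figure D3:**
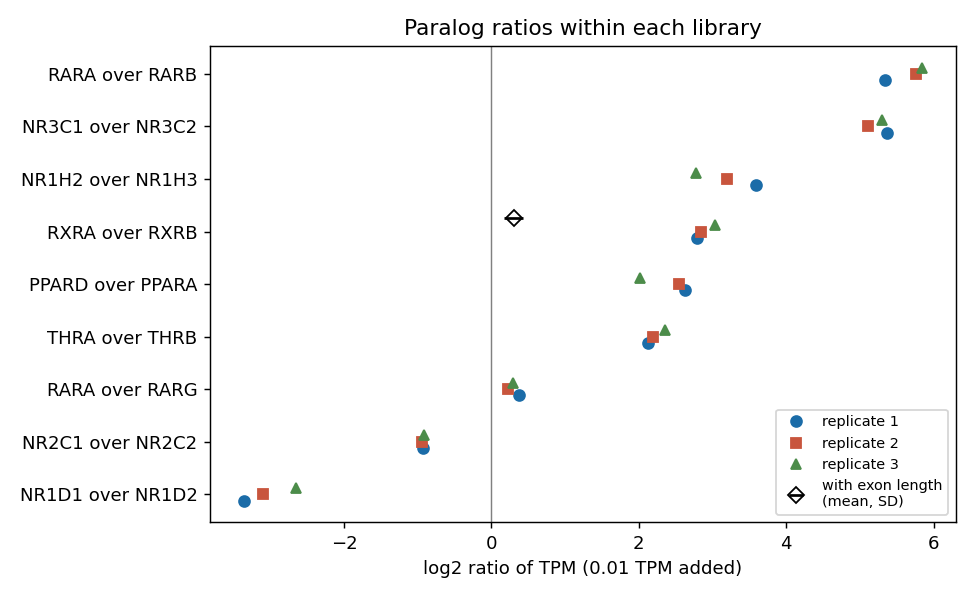
log2 ratio of TPM (0.01 TPM added) for the 9 paralog pairs with both genes detected, 1 point per library, with the open diamond giving the mean and SD of RXRA over RXRB when exon lengths are used. Every pair keeps its sign in the 3 libraries, and RXRA over RXRB lies at 2.89 with deposited and 0.30 with exon lengths.

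The order of levels was only partly resolved by ranges over the libraries. Comparing ranges leaves out that both genes of a pair were measured in the same libraries. Of 26 neighbouring pairs among the 27 detected members, 16 had ranges over the 3 libraries that overlapped and 10 did not. With exon lengths, which move RXRB from place 14 to place 3, 15 overlapped and 11 did not. RXRA and NR2F6 overlapped at the top, as did NR1H2, RARA and THRA after them, each with its neighbour. Within each library RXRA was nevertheless above NR2F6. NR1H2 and RARA changed order in replicate 3, as did RARA and THRA. ESRRA, NR2C1, PPARD, NR3C1 and THRB each stood apart from the next with exon lengths.

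Several members lie close together on the genome. With the deposited lengths, levels were alike for THRA and RARA but not for the others. THRA (chromosome 17, 40062193 to 40093867) ends inside NR1D1 on the opposite strand, with 263 bases shared by their exons, 9.48% of those of NR1D1. RARA lies 208.4 kb beyond NR1D1. Levels were 55.6 ± 6.44 TPM for THRA, 4.63 ± 0.360 TPM for NR1D1 and 56.0 ± 0.734 TPM for RARA. The likeness depends on the length used: with exon lengths from GENCODE, THRA stood at 32.1 TPM and RARA at 60.1 TPM. On chromosome 3, NR1D2 lies 136.5 kb from THRB and THRB 679.5 kb from RARB, at 38.4 ± 6.73, 11.8 ± 0.395 and 1.12 ± 0.212 TPM. On chromosome 9, NR6A1 lies 9.9 kb from NR5A1, which had no counts. The setting used for strand in counting is not given, so reads of NR1D1 and THRA in the shared bases cannot be told apart. The same holds for NR1H3 with ACP2 (172 bases), ESRRA with TRMT112 (249 bases), NR2C2 with MRPS25 (768 bases) and FGD5-AS1 (155 bases), and RARA with RARA-AS1 (672 bases, 15.4% of the RARA exons), which had 10 to 18 counts. RARB with TOP2B, RXRB with SLC39A7 and RORA with RORA-AS1 share 27 to 68 bases. TOP2B had 8983 to 10058 counts against 36 to 48 for RARB, SLC39A7 had 11449 to 12876 and RORA-AS1 had 17 to 29. How many RARB counts came from the shared bases is not known.

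The CG content of start windows was similar in median for detected receptors and detected genes at large, and higher in median for the receptors not detected than for other genes not detected. A RefSeq start window lay within 1000 bases of the deposited start for 32 members. The median observed to expected CG ratio was 0.852 over 22 detected members and 0.731 over 8 members that were not detected. Over protein-coding entries it was 0.842 for 9521 detected and 0.328 for 2836 not detected. The range was 0 to 1.251 over detected members, with 0 for NR3C1 and NR5A2, and 0.409 to 0.972 over those not detected. NR3C1 has several RefSeq starts, and the window nearest to its deposited start was used. These medians are a description, with no test of the difference.

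**Figure D4:**
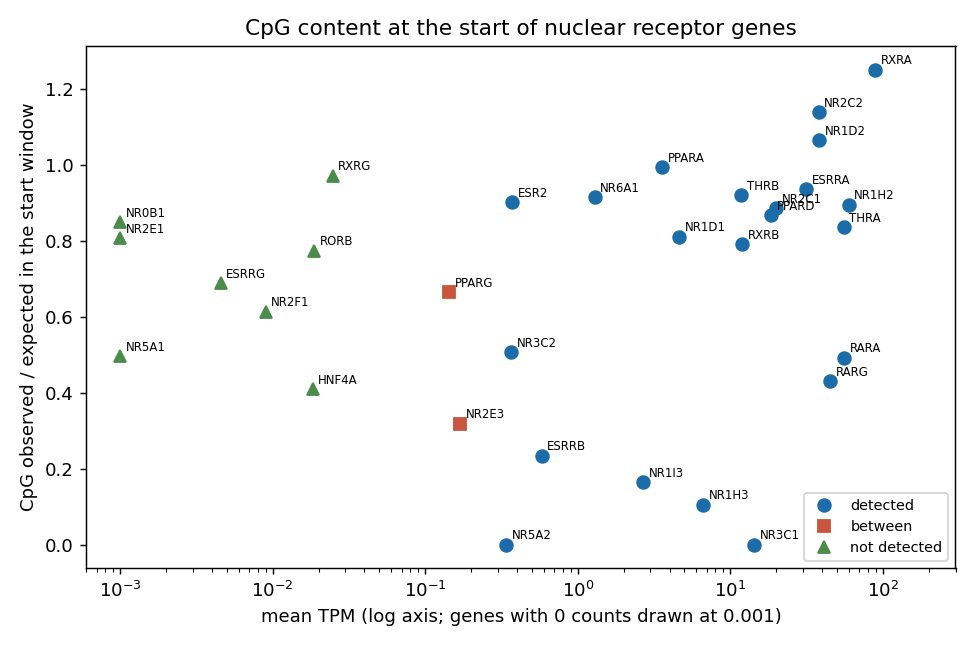
Observed over expected CG pairs in the start window of 32 receptor genes (vertical axis) against the mean TPM (log axis, genes with 0 counts drawn at 0.001). Circles are detected members, squares those between the limits and triangles those not detected, which lie between 0.409 and 0.972.

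Differences between replicates exceeded counting error for 10 receptors, and the background over all genes was similar. Of 27 members tested, 10 varied beyond Poisson sampling (chi-square on counts scaled by edgeR's TMM factors, Benjamini-Hochberg adjusted p under 0.05 over all genes), against 41.6% of 14453 genes. Replicate 3 was the library farthest from the middle value for 8 of the 10, against 69.6% of the genes called. Without replicate 3, 1 of 27 members passed, against 8.04% of genes. Against the trended negative binomial dispersion in edgeR, 0 members passed, against 1.22% of genes. That dispersion was estimated from the same 3 libraries, so it takes in their usual spread and the test is not an independent check. At an unadjusted p under 0.05 that test had 4 of the 27 members, RXRA, THRA, NR1D2 and PPARA. This is a larger share than the 5.93% of genes tested, and the difference was not tested. The ratio of the highest to the lowest library had a median of 1.21 over the 27 members and 1.14 over all genes tested.

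RXRA, THRA and PPARA were highest in replicate 3. RXRA had 221, 232 and 285 CPM (counts per 1000000, TMM-scaled) in replicates 1, 2 and 3, with an adjusted p of 5.96e-58 beyond Poisson in edgeR scaling and 0.791 against the negative binomial. THRA had 66.2, 69.1 and 84.95 CPM (adjusted p = 8.15e-17 and 0.764 by the same tests in edgeR). PPARA had 10.9, 12.4 and 17.7 CPM (edgeR-scaled adjusted p = 3.39e-11 and 0.294). NR1H3 was lowest in replicate 1, at 4.26, 5.94 and 7.33 CPM. RORA and RXRB were also highest in replicate 3 and passed the Poisson test.

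NR1D2, VDR and NR3C1 were lowest in replicate 3. NR1D2 had 88.0, 85.2 and 65.2 CPM (edgeR-scaled adjusted p = 4.99e-24 beyond Poisson and 0.389 against the negative binomial). VDR had 74.2, 71.2 and 58.1 CPM (3.39e-13 and 0.952 by the same tests). NR3C1 had 53.3, 53.3 and 47.1 CPM, and RARG, the tenth gene to pass, was lowest in replicate 1 at 54.1 CPM against 61.2 and 61.1 CPM. On this CPM scale the highest library was 1.02 times the lowest for NR2C2 and ESRRA, 1.03 times for NR2C1 and 1.07 times for RARA.

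**Figure D5:**
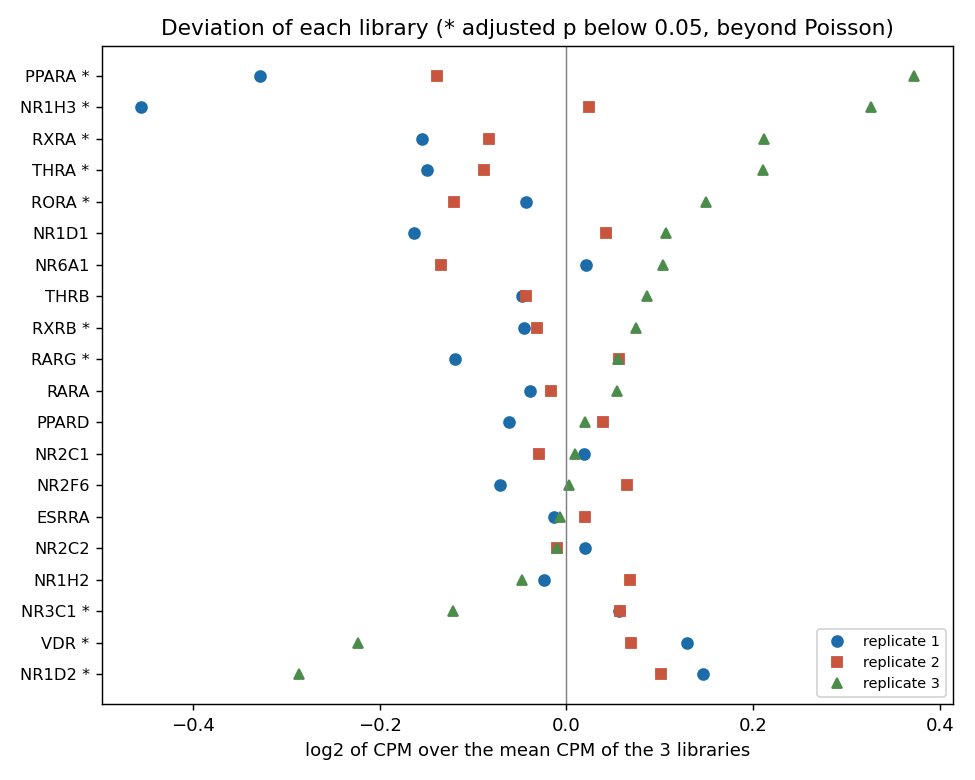
log2 of each library's CPM over the mean of the 3 libraries for the 20 receptors with a mean of at least 2 CPM, ordered by replicate 3, with an asterisk where variation beyond Poisson passed at an adjusted p of 0.05. Replicate 3 lies farthest above the mean for PPARA, NR1H3, RXRA and THRA and farthest below it for NR1D2, VDR and NR3C1, while ESRRA and NR2C2 lie near 0.

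The retinoid list was led by binding proteins. Of 17 genes of retinoid handling 9 were detected (median 0.581 TPM). For this list and those below, the share detected over protein-coding entries was 67.4% and their median 8.09 TPM. CRABP1 and CRABP2, which bind retinoic acid in the cell, stood at 1600 ± 282 and 280 ± 70.9 TPM, followed by the retinol dehydrogenase genes RDH11 (59.9 ± 1.06 TPM) and RDH10 (16.7 ± 0.771 TPM). CRABP2 had 236, 241 and 361 TPM, highest in replicate 3, and was the 1 gene of the list past the negative binomial test (edgeR adjusted p = 0.00042). CYP26A1, a retinoic acid-degrading enzyme gene named after its values were seen, had 0 counts (upper limit 0.122 TPM). Its relatives in the list were not all at 0: CYP26B1 had 8, 6 and 10 counts (0.165 TPM) and CYP26C1 had 1, 1 and 0.

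Genes of thyroid hormone handling were detected in 5 of 9 cases, all at 10 TPM or above (median of the 9, 16.1 TPM). CRYM, whose product binds thyroid hormone, stood at 125 ± 13.7 TPM, KLF9, a hormone-responsive transcription factor gene, at 19.2 ± 1.41 TPM and the deiodinase gene DIO1 at 18.4 ± 1.60 TPM. THRSP, a thyroid hormone-responsive gene of lipid synthesis, had 11.6, 13.2 and 23.8 TPM, highest in replicate 3 (edgeR negative binomial adjusted p = 0.0182). Of 10 genes of vitamin D handling 5 were detected (median 0.178 TPM). They were led by LRP2, an endocytic receptor gene, at 34.3 ± 2.13 TPM and the hydroxylase gene CYP2R1 at 23.4 ± 1.43 TPM, with the calcium channel gene TRPV6 at 4.01 ± 0.0334 TPM (7.77 TPM with its main-chromosome exon length) and CYP27B1 at 1.07 ± 0.622 TPM. CYP24A1, the vitamin D-induced catabolic enzyme gene, named after its values were seen, had 0 counts (upper limit 0.0927 TPM).

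Of 12 glucocorticoid response genes 9 were detected (median 44.9 TPM), and only the 4 highest are named here. DUSP1, a phosphatase gene, had 91.7, 316 and 248 TPM, lowest in replicate 1 (edgeR negative binomial adjusted p = 2.51e-18), and TSC22D3 had 90.3, 117 and 135 TPM, also lowest there (0.0260). NFKBIA stood at 207 ± 13.9 TPM and the metallothionein gene MT2A at 106 ± 5.60 TPM. Of 15 PPAR target genes 8 were detected and 5 were not (median 4.195 TPM), and 4 stood at 10 TPM or above. Among those 4 were these genes of fatty acid oxidation: CPT1A at 183 ± 3.50 TPM, ACADVL at 161 ± 9.18 TPM and ACADM at 44.1 ± 4.11 TPM. Of 12 oxysterol receptor targets 7 were detected (median 8.06 TPM), with SCD at 379 ± 25.3 TPM, the lipogenic factor SREBF1 at 148 ± 24.0 TPM, MYLIP at 70.4 ± 1.75 TPM and the sterol transporter gene ABCG1 at 51.2 ± 3.75 TPM.

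Targets of the bile acid and xenobiotic receptors were nearly silent. Of 13 such genes 2 were detected, SLC51A at 2.07 ± 0.0629 TPM and CYP3A5 at 0.942 ± 0.125 TPM, and the median was 0.0716 TPM. SLC10A1 (0.207 ± 0.0968 TPM) and UGT1A1 (0.0951 ± 0.0288 TPM) came next, below the detection limit, and UGT1A1 shares exons with other genes of its cluster, so its count is uncertain. Of 15 circadian clock genes 14 were detected (median 11.8 TPM): BHLHE40 at 69.1 ± 16.4 TPM, lowest in replicate 1 (edgeR negative binomial adjusted p = 0.00605), CRY1 at 30.6 ± 1.79 TPM, CLOCK at 29.8 ± 1.15 TPM and CRY2 at 17.8 ± 0.189 TPM. All 10 partners and oxidative targets of ESRRA were detected (median 38.4 TPM), with the mitochondrial genes ATP5B at 1680 ± 76.2 TPM, CYCS at 145 ± 6.06 TPM and SDHA at 137 ± 6.91 TPM. The median lies between unlike parts of that list: the partners stood at 1.18 to 22.7 TPM and the oxidative targets at 54.2 TPM or above. Over the 9 lists, the genes past the negative binomial test in edgeR were CRABP2, THRSP, DUSP1, TSC22D3 and BHLHE40. Beyond Poisson, 2 of 9 retinoid, 3 of 5 thyroid hormone, 2 of 5 vitamin D, 5 of 9 glucocorticoid, 5 of 8 PPAR, 6 of 7 oxysterol, 0 of 2 bile acid and xenobiotic, 4 of 14 clock and 5 of 10 ESRRA list genes tested passed, against 41.6% of all genes. The lists are not separate: NR1H3, itself a member, is among the 6 oxysterol genes that passed. KLF9 is in the thyroid hormone and glucocorticoid lists, and PER1 in the glucocorticoid and clock lists.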

How the data were processed

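Poly-A RNA of 3 libraries went through a stranded Illumina kit, per the labels' protocols. The authors deposited 1 expected count per gene and library. The submitters' processing notes name hg38, featureCounts, Subread and TopHat, with no version or setting stated in the sources used here. The table's length column, in bases, was deposited by the authors, and coordinates are 1-based on hg38.

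TPM was computed from deposited counts and lengths. For the test of spread, counts were rounded and scaled in edgeR 4.0.16 (R 4.3.3) with TMM factors of 1.01, 1.00 and 0.990, filtered with its default filter on low counts, and each gene was compared with Poisson or trended negative binomial variance over all genes, with Benjamini-Hochberg adjustment. The procedure was tested on simulated data, drawn as Poisson counts or with a fixed dispersion in place of the trend seen here. That test therefore does not give the error rate in these libraries. Ratios used 0.01 TPM added and an exact sign-flip test (SciPy 1.17.1). Biotypes came from a RefSeq table (GRCh38.p14): 23758 entries matched by symbol and 1582 by a synonym.

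The members, pairs and gene lists were chosen with earlier results of these data known. Named genes were all 41 members, the 4 highest of each list and list genes past both tests of spread, except that some list genes are not reported here. Exon lengths came from the table's own exons on the main chromosome or from GENCODE. Alternatives were other count minimums, CPM, other lengths, other scalings (DESeq2 1.42.0 among them), the negative binomial, another pseudocount, no filter and leaving out each replicate. A planned comparison of protein sequences was not made.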

Additional observations from a re-analysis of the deposited data

How the results depend on the processing

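The count of members detected was 27 without any 1 replicate, 30 with a minimum of 1 count, 23 with a minimum of 20 counts and 22 with a mean of at least 1 TPM, and the 9 paralog ratios kept their sign under every alternative tried. The median level of the members was 1.5001 CPM. The log2 ratio of RXRA over RXRB was 2.24 with exon lengths from GENCODE, where RXRA has 1846 bases of exon against the 7310 bases over which its reads were counted, which puts RXRA at 362 TPM. With the same lengths RXRB stood at 76.1, NR2F6 at 60.2, below NR1H2 at 61.2, THRA at 32.1, ESRRB at 0.315 and ESR2 at 0.214 TPM, and the levels of RXRA, RXRB, THRA, ESRRB and ESR2 moved by over 1.5 times. The number of members varying beyond Poisson was 0 with the negative binomial model and 1 to 11 without 1 replicate, lowest without replicate 3. On CPM the list medians were 7.23 for thyroid hormone handling, 0.435 for vitamin D handling, 27.2 for glucocorticoid response, 3.01 for PPAR targets, 21.6 for oxysterol receptor targets, 17.3 for the clock and 50.2 for ESRRA partners. Without 1 replicate, medians in TPM ranged from 12.4 to 17.0 for thyroid hormone handling, from 0.0488 to 0.0707 for bile acid and xenobiotic targets and from 11.3 to 12.1 for the clock. The cause of these shifts was not tested. No paired comparison between groups was possible because there is 1 group only. The paralog ratios pair genes within each library. Depth limits members under 10 counts, for which 3 counts equal 0.0411 to 0.238 TPM.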
